A study of Homo sapiens with 18 samples.

Results

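The genes that build cholesterol and fatty acids were followed across 18 polyadenylated RNA libraries of RPE1, a human cell line from retinal pigment epithelium that was made immortal with telomerase and is close to diploid. The set held 32 genes chosen by symbol: the enzymes of the mevalonate arm, the enzymes from squalene to cholesterol, the proteins that sense sterols and control the pathway, the enzymes of fatty acid synthesis and desaturation, and a sterol exporter. Of the 32, 31 had a row among the 57773 rows of the deposited table, and 29 passed the filter on low values, which asked for 0.5 RPKM or more as the average of all libraries and was met by 13037 rows. RPKM, the authors' unit, is a read count scaled to gene length and library size. ELOVL6 and ABCA1 did not pass and are described separately. ACACA, which makes malonyl-CoA, could not be matched by identifier, so its level is not analysed here.

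Cells had either no drug, or cytochalasin D, an inhibitor of actin filament growth that stops the cell body from dividing, or ZM447439, an inhibitor of Aurora kinases. They were then sorted on DNA content into a 2N and a 4N fraction, which gave 6 groups of 3 libraries, described in the series' design text as biological replicates. All cells grew in medium with 10% serum and received Hoechst dye (2 µg/mL, 60 min) before the sort. ZM447439 was given at 2.5 µM for 24 h. The labels repeat that treatment text for every library and give neither a dose nor a time for cytochalasin D, and they name no vehicle. A 4N content is shared by diploid cells that have replicated their DNA and by tetraploid cells that have not, and in these bulk libraries fewer cells of a kind and less RNA per cell cannot be told apart.

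As background, cells make cholesterol from acetyl-CoA through mevalonate, the isoprenoid pyrophosphates, squalene and lanosterol, and they make fatty acids from acetyl-CoA through malonyl-CoA. When membranes of the endoplasmic reticulum are short of sterol, SCAP escorts the SREBP transcription factors, the products of SREBF1 and SREBF2, to the Golgi, where they are cut and released to activate most of these genes. INSIG1 and INSIG2 hold SCAP back when sterol is plentiful, so transcripts of the set are commonly read together.

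The 4 genes that passed the test in the most comparisons, 5 each, were ACLY, EBP, INSIG2 and STARD4, and the 250 bases before their annotated starts are shown because these genes moved in different directions. The sequences are RefSeq's for GRCh38.p14, 5′ to 3′ on the gene's strand, with matches to CCAAT, the NF-Y box, on either strand in capitals. The stretches lie at chr17:41919023-41919272 (minus strand), chrX:48521558-48521807 (plus strand), chr2:118088221-118088470 (plus strand) and chr5:111512536-111512785 (minus strand).
ACLY: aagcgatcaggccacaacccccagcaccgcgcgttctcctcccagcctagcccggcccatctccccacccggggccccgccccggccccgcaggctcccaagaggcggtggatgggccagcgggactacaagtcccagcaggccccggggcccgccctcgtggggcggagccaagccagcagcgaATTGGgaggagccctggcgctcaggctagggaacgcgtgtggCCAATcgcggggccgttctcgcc
EBP: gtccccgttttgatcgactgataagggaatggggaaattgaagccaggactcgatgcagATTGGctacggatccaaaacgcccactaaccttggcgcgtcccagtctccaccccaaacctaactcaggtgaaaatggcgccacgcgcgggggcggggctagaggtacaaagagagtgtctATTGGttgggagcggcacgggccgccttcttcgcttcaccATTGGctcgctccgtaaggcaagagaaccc
INSIG2: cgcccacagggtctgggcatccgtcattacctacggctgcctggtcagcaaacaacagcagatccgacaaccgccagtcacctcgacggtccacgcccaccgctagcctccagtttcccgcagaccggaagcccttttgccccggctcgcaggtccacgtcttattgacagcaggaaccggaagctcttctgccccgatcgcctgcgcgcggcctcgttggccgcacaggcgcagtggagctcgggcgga
STARD4: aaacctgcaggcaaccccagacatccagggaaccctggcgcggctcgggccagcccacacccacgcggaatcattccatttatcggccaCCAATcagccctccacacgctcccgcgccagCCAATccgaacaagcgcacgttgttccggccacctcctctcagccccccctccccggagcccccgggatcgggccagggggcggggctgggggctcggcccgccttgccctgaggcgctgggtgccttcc
ACLY has 2 CCAAT matches in this window, EBP has 3, STARD4 has 2 and INSIG2 has none. Of the 28 genes of the set with a RefSeq promoter, ACACA among them, 17 (60.7%) held CCAAT within 300 bases around the start (250 before and 50 after), against 35.7% of 27305 promoters. The SP1 box GGGCGG was found in 26 of the 28 (92.9%, against 44.6% of all) and the E-box CACGTG in 5 (17.9%, against 7.43% of all). The sterol regulatory element, searched as TCACNCCAC, was found in 1 of the 28 (3.57%, against 1.15% of all), where SREBF2 carries TCACCCCAC at position -133 from its start. All motifs were searched on both strands. The matches are descriptions of these windows, with no test.

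The low values in the table implied libraries of 51134850 to 78294050 reads and a length equal to the whole genomic span of a gene, introns included. At that depth TM7SF2 had the fewest reads of the 29 genes in a library, 264, and SCD the most, 95758. The 8 G2/M genes used to check the sorts (MKI67, TOP2A, CCNB1, CDK1, UBE2C, AURKA, BUB1 and CCNA2) were all higher in 4N than in 2N without drug, and 7 of 8 passed under ZM447439. Under cytochalasin D 0 of 8 passed, where 0% of all genes did. Their summed level there was still higher in 4N (14.2 to 16.2 RPKM) than in 2N (5.22 to 10.4 RPKM). In each comparison of a drug with untreated cells, 8 of 8 were lower with the drug, and their part in the results below was not tested. Of 12 markers of retinal pigment epithelium 5 passed the filter: OTX2, BEST1, PMEL and the keratins KRT8 and KRT18. BEST1 and PMEL share exons with FTH1 and CDK2 on the other strand, so in libraries without strand their reads are uncertain. RLBP1, TYRP1, TYR, DCT, MITF and SERPINF1 did not pass, and RPE65 reached at most 0.0356 RPKM. Summed levels of markers of blood, liver and adipocytes stayed at or below 0.252, 0.0429 and 0.111 RPKM in every library. Replicate 3 of untreated cells and replicate 1 of both drugs, 6 libraries in all, stood apart from their groups. Within a group the SD of the log2 difference over all genes was 0.159 to 0.182 between the other 2 replicates and 0.247 or more against these, and results are given with and without them. They were chosen for their distance from their groups, so a fit without them has a smaller spread by construction, with 2 close replicates a group and 6 residual degrees of freedom. More of all genes passed in each of the 11 comparisons that way, and its counts are given with the share of all genes in the same fit and only as a description. Nothing in the labels says which libraries came from separate cultures beyond the word for biological replicates, so p-values measure the spread among these libraries.

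Replicates of a drug differed widely in this set. Relative to each gene's mean over the 18 libraries, the median of the 29 genes was lowest in replicate 1 of cytochalasin D, at -0.75 (2N) and -0.76 (4N) on the log2 scale. It was highest in replicates 2 and 3 of the ZM447439 2N sort, at 0.63 and 0.74. The same median over all genes tested stayed between -0.07 and 0.08. Of the 31 genes with a row, 20 had their lowest value in cytochalasin D 4N replicate 1 and 23 their highest in ZM447439 2N replicate 3. These counts were made for the set alone, so no share of all genes stands beside them. The heat map of all libraries shows both extremes as whole columns, with SCAP and PMVK, which varied 1.25-fold and 1.81-fold over the libraries, among the rows that change little.

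**Figure D1:**
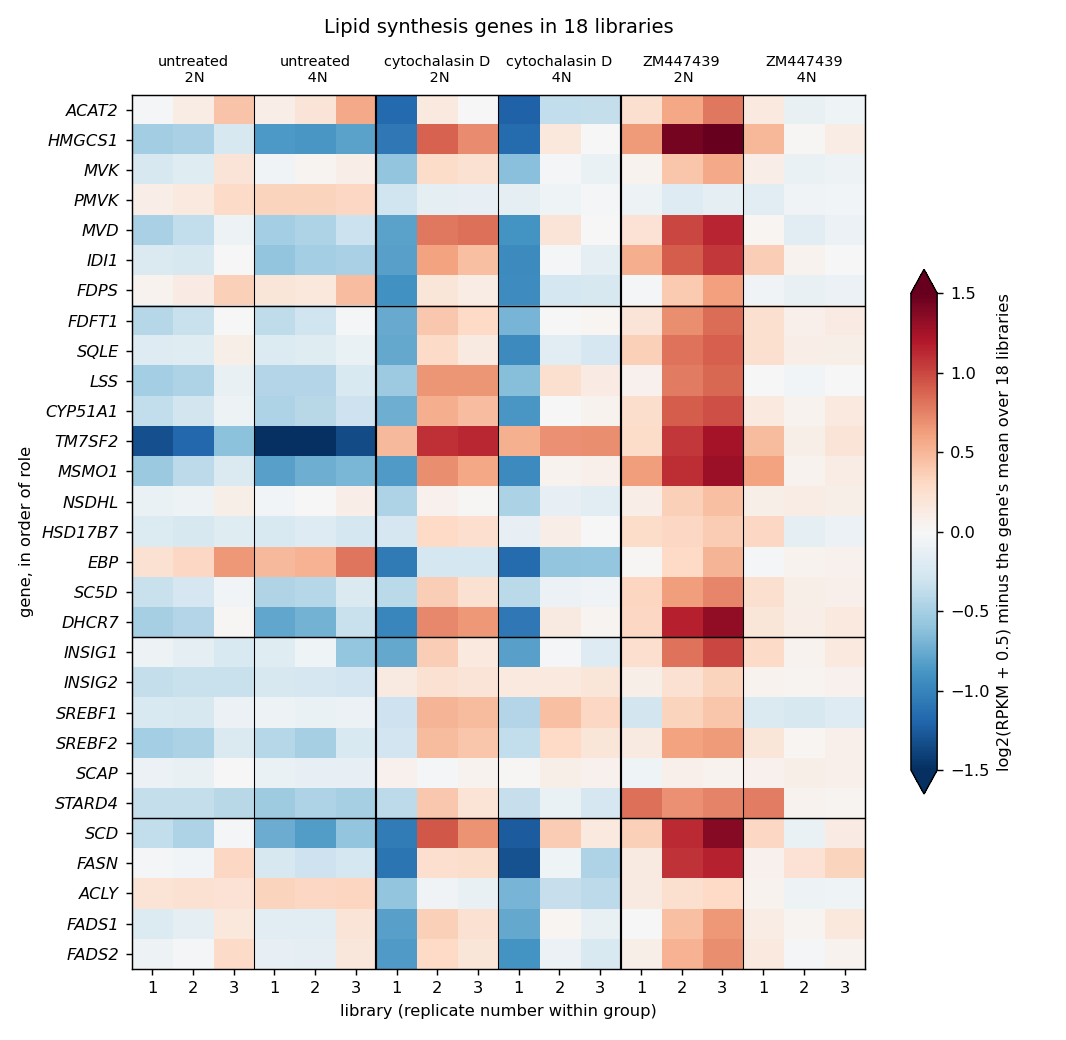
Each row is a gene (29 genes, ordered by role, with lines between roles) and each column a library; colour is log2(RPKM + 0.5) minus the gene's mean over the 18 libraries. Most rows are blue in cytochalasin D replicate 1 of both sorts, where the median is -0.75 and -0.76, and red in ZM447439 2N replicates 2 and 3, where it is 0.63 and 0.74.

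Most of the pathway was higher with ZM447439 in 2N cells. Between ZM447439 2N and untreated 2N, 18 of the 29 genes rose and 1 fell (limma on log2(RPKM + 0.5), adjusted p under 0.05 over all genes tested). Of all 13037 genes, 56% passed in this comparison, 23.6% higher and 32.5% lower. The median of the 29 was 0.77, against -0.04 for all genes. From squalene to cholesterol 10 of 11 enzymes rose. Among them HSD17B7 averaged 0.508 RPKM, just past the filter of 0.5. Its untreated means were 0.36 in 2N and 0.35 in 4N, so it met the filter only through drug libraries. In the mevalonate arm 3 of 7 rose and 1 fell, 4 of 6 sensing and control genes rose, and of the 5 fatty acid genes SCD rose. The 9 genes that passed under every alternative were HMGCS1, MSMO1, HSD17B7, SC5D, TM7SF2, INSIG2, SREBF2, STARD4 and PMVK, the gene that fell. The other 10 were lost without ZM447439 2N replicate 3 (limma, adjusted p from 0.0525 to 0.142). That left 9, 8 of them higher, where 49.8% of all genes passed, 2553 of 13037 higher. Without replicate 2, 8 of the 10 were lost. That left 11, 10 of them higher, where 49.5% of all genes passed, 2612 higher. Both counts are a smaller share of the set than of all genes, though not among the genes that rose. Without the 6 libraries that stand apart 27 passed (26 higher), where 68.7% of all genes passed.

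In 4N cells fewer genes passed. Between ZM447439 4N and untreated 4N, 6 of the 29 rose and 3 fell, where 55.2% of all genes passed (19.6% higher, 35.5% lower), and the median was 0.35 against -0.07. When libraries were rescaled so that their median ratios matched, the set's split was 8 higher and 1 lower, and that of all genes 3365 higher and 3665 lower in place of 2560 and 4630. With a fit on the libraries of these groups alone, 18 rose and 5 fell (55.3% of all genes passed), and without the 6 libraries 19 rose and 5 fell (65.5%). TM7SF2, INSIG2, STARD4, SCAP and PMVK passed under every alternative, while MSMO1, SC5D, ACLY and EBP each missed the threshold without 1 or more single libraries (limma, adjusted p up to 0.113).

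Cytochalasin D gave a mixed picture. Between cytochalasin D 2N and untreated 2N, 4 genes rose (TM7SF2, SREBF2, INSIG2 and STARD4) and 3 fell (EBP, ACLY and PMVK), where 66.6% of all genes passed (27.1% higher, 39.5% lower). Between cytochalasin D 4N and untreated 4N, 3 rose (TM7SF2, INSIG2 and SCAP) and 5 fell (EBP, ACAT2, ACLY, FDPS and PMVK), where 70.5% passed (26.1% higher, 44.4% lower). The medians were 0.24 and 0.16, against -0.08 and -0.13 for all genes. After rescaling, which moves the median of all genes in the 4N comparison from -0.13 to 0, the set's 4N split was 4 higher and 4 lower, and that of all genes 4448 higher and 4562 lower in place of 3398 and 5793. In 2N cells 1 library decided the count: without cytochalasin D 2N replicate 1 it was 16 higher and 3 lower, where 65.1% of all genes passed. SREBF2 and STARD4 missed the threshold without any one of 4 and 5 of the 6 libraries (limma, adjusted p from 0.0525 to 0.223), and in 4N cells ACAT2 and FDPS missed it without untreated 4N replicate 3 (limma, adjusted p = 0.0569 and 0.0629) or cytochalasin D 4N replicate 1 (limma, adjusted p = 0.0775 and 0.0929). Without the 6 libraries it was 24 higher and 3 lower in 2N, where 74.7% of all genes passed, and 17 higher and 6 lower in 4N, where 76.9% did, a share near that of the set. The cytochalasin D and ZM447439 comparisons share the untreated libraries, so their values are set side by side and not counted as separate support.

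**Figure D2:**
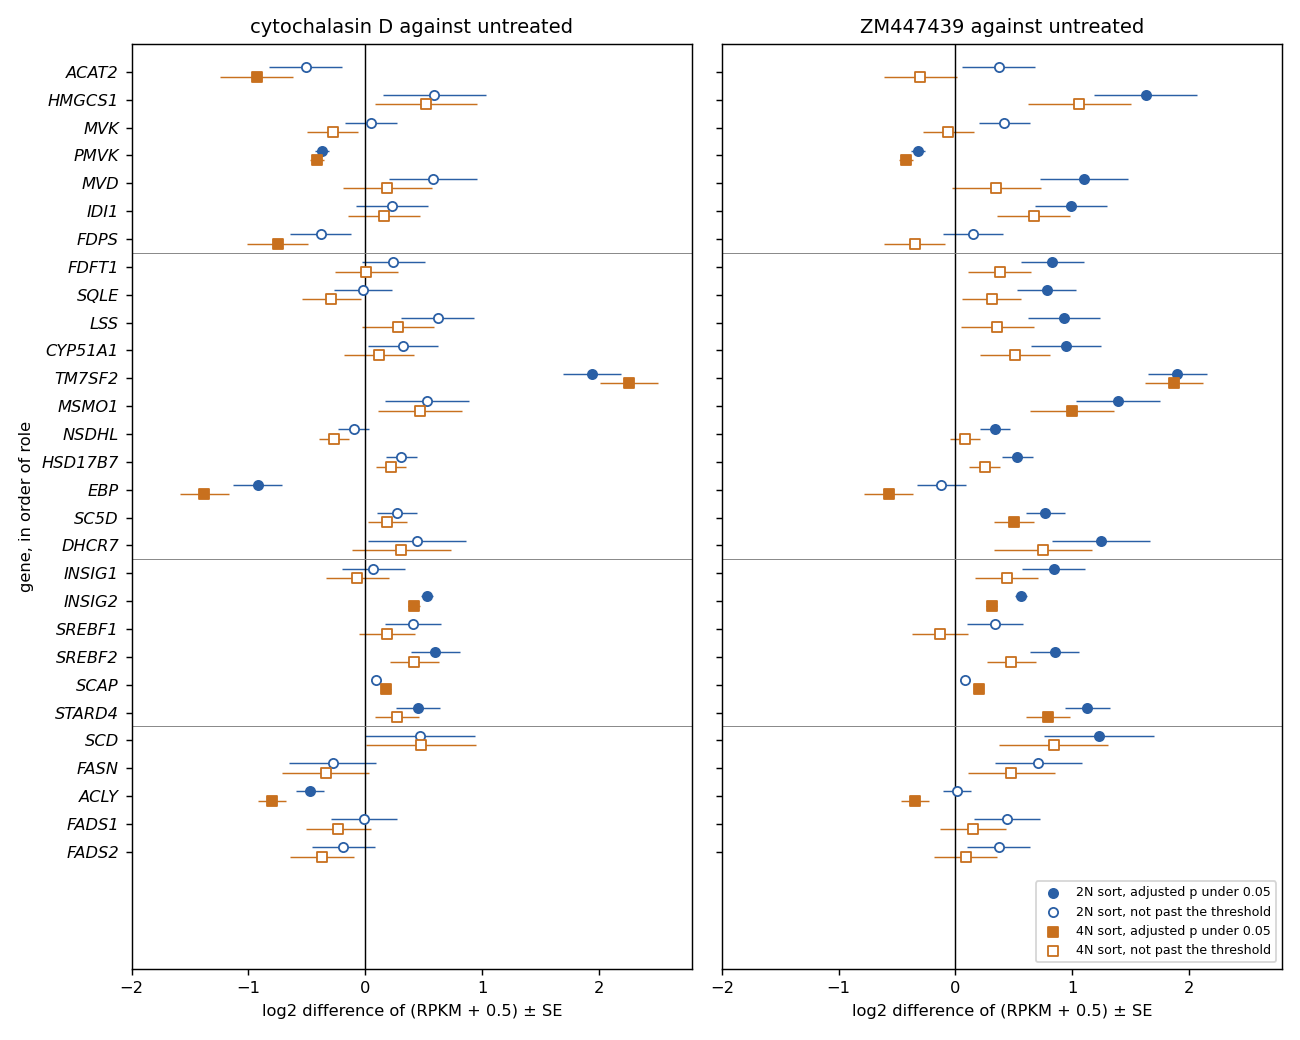
Each gene's log2 difference of (RPKM + 0.5) from untreated cells of the same sort (x axis, bars are the SE, n = 3 against 3), for cytochalasin D (left) and ZM447439 (right); filled symbols have an adjusted p under 0.05. TM7SF2 lies farthest right in all 4 comparisons, from 1.87 to 2.26, and in cytochalasin D EBP lies farthest left, at -0.92 and -1.38.

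HMGCS1, which makes HMG-CoA at the start of the mevalonate arm, stood at 2.9, 3 and 3.64 RPKM in untreated 2N replicates 1 to 3, at 1.82, 8.52 and 7.5 with cytochalasin D and at 7.09, 12.7 and 14 with ZM447439. The 4N libraries held 2.18, 2.16 and 2.29 untreated, 1.7, 4.95 and 4.37 with cytochalasin D and 6.4, 4.46 and 4.76 with ZM447439. Every ZM447439 library lay above every untreated library of its sort, while replicate 1 of cytochalasin D lay below all untreated libraries and replicates 2 and 3 above them. The rise with ZM447439 in 2N was 1.63 (SE 0.44) on the log2 scale (limma, adjusted p = 0.00586). In 4N it was 1.06 (SE 0.44; limma, adjusted p = 0.0545), and with cytochalasin D in 2N the difference was 0.59 (SE 0.44; limma, adjusted p = 0.25).

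MVD, which decarboxylates mevalonate pyrophosphate, measured 2.45, 2.71 and 3.43 RPKM in untreated 2N, 1.87, 6.65 and 6.87 in cytochalasin D 2N and 4.33, 7.79 and 8.69 in ZM447439 2N. In 4N it measured 2.41, 2.52 and 2.83, 1.73, 4.23 and 3.63 and 3.73, 3.2 and 3.39 in the same order. As for HMGCS1, the ZM447439 libraries were all above the untreated ones and cytochalasin D replicate 1 was below them. The 2N rise with ZM447439 was 1.1 (SE 0.38; limma, adjusted p = 0.0234). IDI1, the isomerase that supplies dimethylallyl pyrophosphate, was at 6.57, 6.46 and 7.71 RPKM in untreated 2N, 4.18, 12 and 10.7 in cytochalasin D 2N and 11.5, 14.9 and 16.6 in ZM447439 2N, with 4N values of 4.95, 5.25 and 5.35, 3.75, 7.58 and 6.91 and 10.1, 7.99 and 7.75. Its 2N rise with ZM447439 was 0.99 (SE 0.31; limma, adjusted p = 0.0135). IDI2-AS1, an annotated antisense gene, overlaps IDI1, and the libraries carry no strand, so reads of overlapping genes cannot be told apart. The same holds for HMGCS1, MVK and FDPS, which overlap genes on the other strand.

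A pair of the remaining enzymes of this arm fell with cytochalasin D in 4N cells. ACAT2, the cytosolic acetoacetyl-CoA thiolase, was at 3.48, 3.74 and 4.99 RPKM in untreated 4N and 1.1, 2.38 and 2.4 in cytochalasin D 4N, groups that did not overlap, and the fall was -0.93 (SE 0.31; limma, adjusted p = 0.0139). Its 2N values were 3.14, 3.52 and 4.5 untreated, 1.15, 3.62 and 3.22 with cytochalasin D and 3.87, 5.07 and 5.94 with ZM447439, and ZM447439 4N held 3.61, 2.93 and 3.05. FDPS, which makes farnesyl pyrophosphate, went from 9.32, 9.15 and 11.4 RPKM in untreated 4N to 4, 6.69 and 6.8 in cytochalasin D 4N, again with no overlap, a change of -0.75 (SE 0.26; limma, adjusted p = 0.0175). FDPS stood at 8.45, 8.88 and 10.6 in untreated 2N, 4.1, 9.33 and 8.84 in cytochalasin D 2N, 8.06, 10.8 and 12.7 in ZM447439 2N and 7.8, 7.52 and 7.63 in ZM447439 4N.  ACAT2 shares bases with TCP1 and SOD2, which lie on the other strand.

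The 2 mevalonate kinases differed from each other. PMVK, phosphomevalonate kinase, stood at 1.53, 1.61 and 1.81 RPKM in untreated 2N against 1.05, 1.21 and 1.24 in cytochalasin D and 1.3, 1.16 and 1.21 in ZM447439. In 4N it stood at 1.9, 1.89 and 1.86, 1.21, 1.31 and 1.36 and 1.19, 1.33 and 1.35. Each untreated library lay above each drug library of its sort, and PMVK is the gene of the set that fell with both drugs in both sorts, by -0.37 and -0.41 with cytochalasin D (SE 0.06 each; limma, adjusted p = 5.64e-05 and 1.61e-05). With ZM447439 it fell by -0.32 and -0.42 (SE 0.06 each; limma, adjusted p = 0.000306 and 2.87e-05). MVK, mevalonate kinase, was at 0.719, 0.769 and 1.15 RPKM in untreated 2N, 0.453, 1.25 and 1.19 in cytochalasin D 2N and 0.997, 1.43 and 1.63 in ZM447439 2N, and its 4N values were 0.888, 0.988 and 1.05, 0.437, 0.929 and 0.849 and 1.04, 0.843 and 0.869. MVK passed in none of the 11 comparisons.

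Among the enzymes from squalene to cholesterol, TM7SF2 had the largest differences of the set. TM7SF2, a sterol reductase acting just after the lanosterol demethylase, was at 1.58, 1.79 and 2.87 RPKM in untreated 2N, 6.73, 10.6 and 10.8 in cytochalasin D 2N and 5.74, 10.3 and 11.8 in ZM447439 2N. The 4N libraries gave 0.995, 1.07 and 1.54, 6.97, 7.83 and 7.88 and 6.68, 5.02 and 5.42. All 12 drug libraries lay above all 6 untreated libraries, replicate 1 included. The differences were 1.94 and 2.26 with cytochalasin D in 2N and 4N, 3.84-fold and 4.78-fold on the scale of RPKM + 0.5 (SE 0.25; limma, adjusted p = 7.61e-06 and 1.36e-06). With ZM447439 they were 1.90 and 1.87, 3.72-fold and 3.66-fold (SE 0.25; limma, adjusted p = 1.66e-05 and 1.91e-05). LBR, a nuclear membrane protein with the same reductase activity and no member of the set, fell in all 4 comparisons, by -1.31 and -1.71 with cytochalasin D and by -0.99 and -1.22 with ZM447439.

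MSMO1, the sterol methyl oxidase, held 4.1, 4.66 and 5.31 RPKM in untreated 2N, 3.25, 10.5 and 9.62 in cytochalasin D 2N and 9.95, 14.1 and 15.9 in ZM447439 2N. In 4N it held 3.35, 3.56 and 3.71, 2.98, 6.5 and 6.61 and 9.77, 6.52 and 6.78. The ZM447439 libraries were above the untreated ones in both sorts, and cytochalasin D replicate 1 was below them. MSMO1 rose with ZM447439 by 1.39 in 2N and 1 in 4N (SE 0.36; limma, adjusted p = 0.00406 and 0.028). SC5D, a sterol desaturase, was at 1.08, 1.17 and 1.43 RPKM in untreated 2N, 0.997, 2.06 and 1.82 in cytochalasin D 2N and 1.99, 2.58 and 2.79 in ZM447439 2N, with 4N values of 0.958, 0.973 and 1.21, 1, 1.37 and 1.42 and 1.84, 1.62 and 1.6. It rose with ZM447439 by 0.77 and 0.50 (SE 0.17; limma, adjusted p = 0.00146 and 0.0221), again with no overlap in either sort.

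SQLE, squalene epoxidase, measured 2.07, 2.09 and 2.61 RPKM in untreated 2N, 1.23, 3.09 and 2.73 in cytochalasin D 2N and 3.26, 4.66 and 4.95 in ZM447439 2N, then 2.04, 2.08 and 2.25, 1.01, 2.14 and 1.96 and 2.96, 2.65 and 2.63 in 4N. NSDHL, a sterol dehydrogenase, measured 0.55, 0.562 and 0.69 RPKM in untreated 2N, 0.315, 0.669 and 0.633 in cytochalasin D 2N and 0.704, 0.942 and 1.03 in ZM447439 2N, then 0.59, 0.615 and 0.702, 0.311, 0.531 and 0.498 and 0.693, 0.71 and 0.695 in 4N. In both genes ZM447439 2N lay wholly above untreated 2N, with differences of 0.78 for SQLE (SE 0.25; limma, adjusted p = 0.0143) and 0.34 for NSDHL (SE 0.13; limma, adjusted p = 0.0375). DHCR7, the reductase of the last step, went from 2.32, 2.44 and 3.53 RPKM in untreated 2N to 1.52, 6.08 and 5.74 in cytochalasin D 2N and 4.46, 8.47 and 9.52 in ZM447439 2N, a ZM447439 difference of 1.25 (SE 0.42; limma, adjusted p = 0.0194). Its 4N values were 1.82, 1.93 and 2.65, 1.4, 3.88 and 3.6 and 4.02, 3.78 and 3.9, with ZM447439 again above untreated.

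FDFT1, squalene synthase, was at 2.29, 2.48 and 3.27 RPKM in untreated 2N, 1.73, 4.47 and 4.14 in cytochalasin D 2N and 3.81, 5.57 and 6.24 in ZM447439 2N, and at 2.39, 2.56 and 3.19, 1.82, 3.25 and 3.35 and 3.94, 3.47 and 3.59 in 4N. LSS, lanosterol synthase, was at 2.36, 2.47 and 3.28 RPKM, 2.3, 5.98 and 5.98 and 3.78, 6.48 and 6.94 in the same 2N groups and at 2.52, 2.5 and 2.98, 2.11, 4.32 and 3.95 and 3.61, 3.45 and 3.58 in 4N. In both genes cytochalasin D replicate 1 lay below the untreated libraries of its sort, replicates 2 and 3 and all ZM447439 libraries above them. CYP51A1, the lanosterol demethylase, was at 2.01, 2.18 and 2.56 RPKM in untreated 2N, 1.44, 4.2 and 3.94 in cytochalasin D 2N and 3.39, 5.57 and 5.8 in ZM447439 2N, and at 1.85, 1.92 and 2.11, 1.26, 2.72 and 2.85 and 3.09, 2.85 and 3.07 in 4N. HSD17B7, a sterol ketoreductase, was at 0.361, 0.344 and 0.375 RPKM in untreated 2N, 0.333, 0.726 and 0.683 in cytochalasin D 2N and 0.7, 0.732 and 0.793 in ZM447439 2N, and at 0.35, 0.37 and 0.33, 0.413, 0.566 and 0.497 and 0.737, 0.398 and 0.437 in 4N. All 4 rose with ZM447439 in 2N, FDFT1 by 0.83, LSS by 0.93, CYP51A1 by 0.95 and HSD17B7 by 0.53 (limma, adjusted p = 0.0187, 0.0182, 0.0156 and 0.00326). HSD17B7 has a near-identical pseudogene, and LSS and CYP51A1 overlap other annotated genes, so their reads are uncertain.

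EBP, the sterol isomerase between these enzymes, was the exception. It was at 4.72, 5.02 and 6.47 RPKM in untreated 2N, 1.64, 3.22 and 3.22 in cytochalasin D 2N and 4, 4.96 and 5.83 in ZM447439 2N. In 4N it was at 5.72, 5.87 and 7.26, 1.5, 2.44 and 2.48 and 3.86, 4.1 and 4.15. Cytochalasin D libraries lay below all untreated libraries in both sorts, and ZM447439 lay below them in 4N while overlapping them in 2N. The falls were -0.92 in 2N and -1.38 in 4N with cytochalasin D (SE 0.21; limma, adjusted p = 0.00138 and 3.72e-05) and -0.57 in 4N with ZM447439 (SE 0.21; limma, adjusted p = 0.0323).

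**Figure D3:**
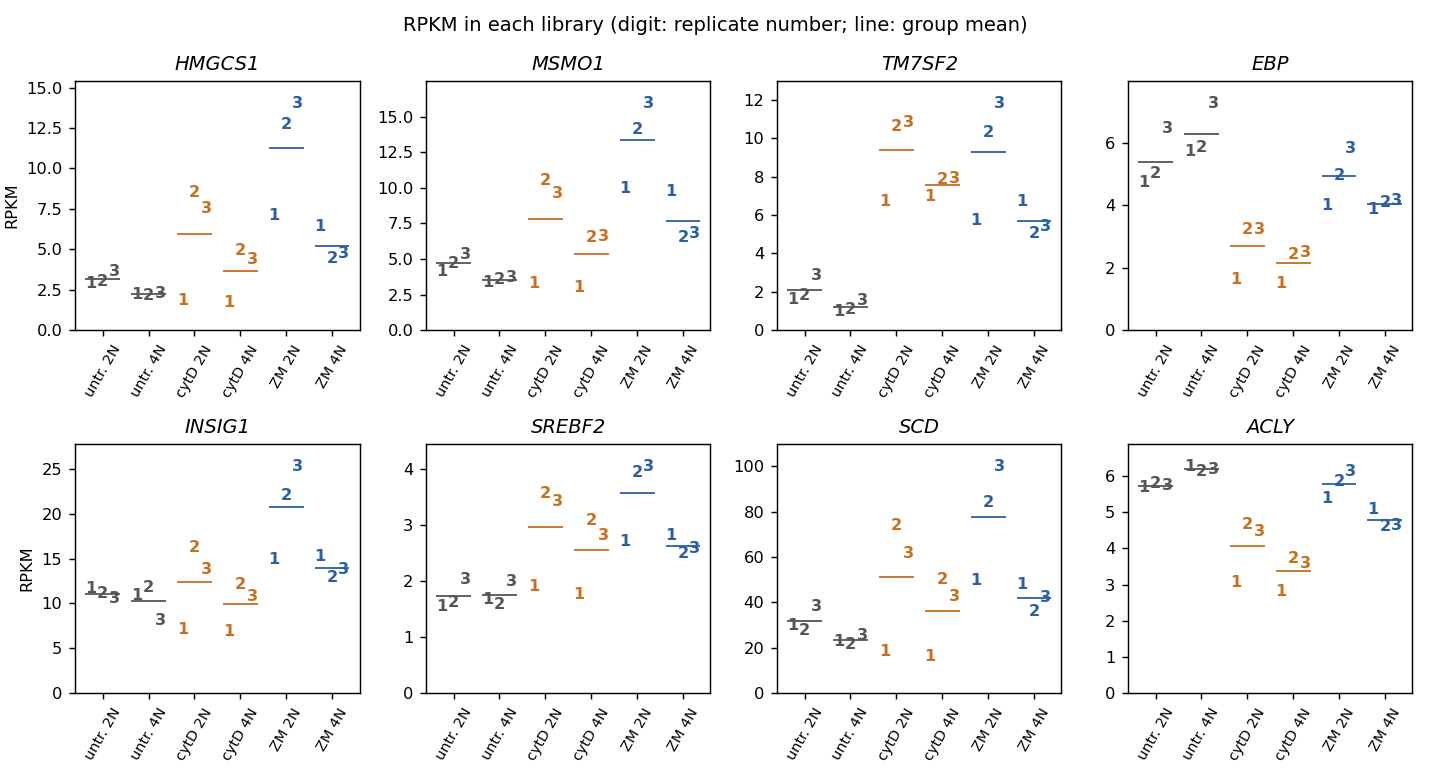
RPKM (y axis, from 0) of 8 genes in each library, drawn as its replicate number, with the group mean as a line; untr., untreated; cytD, cytochalasin D; ZM, ZM447439. In HMGCS1, MSMO1, INSIG1, SREBF2 and SCD replicate 1 of cytochalasin D is the lowest of its group, and in ZM447439 2N replicate 1 is below replicates 2 and 3; TM7SF2 is above untreated in all 12 drug libraries, from 5.02 to 11.8 RPKM.

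Of the 6 genes that sense sterol and control the pathway, 3 rose with cytochalasin D in 2N and 2 in 4N, 4 rose with ZM447439 in 2N and 3 in 4N, and none fell. Of all genes 66.6%, 70.5%, 56% and 55.2% passed in these comparisons, so with cytochalasin D the share of the 6 lies below that of all genes. INSIG2, which retains SCAP, was at 0.542, 0.555 and 0.556 RPKM in untreated 2N, 0.961, 1.06 and 1.02 in cytochalasin D 2N and 0.914, 1.06 and 1.18 in ZM447439 2N. Its 4N libraries were at 0.628, 0.623 and 0.592, 0.976, 0.981 and 1.01 and 0.883, 0.872 and 0.896. No drug library overlapped an untreated one. INSIG2 rose by 0.53 and 0.42 with cytochalasin D in 2N and 4N (SE 0.05; limma, adjusted p = 2.85e-07 and 2.71e-06). With ZM447439 it rose by 0.56 and 0.31 (SE 0.05; limma, adjusted p = 3.79e-07 and 9.41e-05).

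INSIG1, the relative of INSIG2 that is itself a target of the pathway's transcription factors, varied far more between replicates. It was at 11.7, 11.1 and 10.5 RPKM in untreated 2N, 7.05, 16.2 and 13.8 in cytochalasin D 2N and 14.9, 22.1 and 25.3 in ZM447439 2N, and at 10.9, 11.8 and 8.11, 6.85, 12.1 and 10.8 and 15.2, 12.9 and 13.8 in 4N. It rose with ZM447439 in 2N by 0.84 (SE 0.27; limma, adjusted p = 0.0171), and its cytochalasin D 2N libraries lay on both sides of the untreated ones.

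SREBF2, the sterol-responsive transcription factor gene, was at 1.55, 1.61 and 2.03 RPKM in untreated 2N, 1.91, 3.57 and 3.42 in cytochalasin D 2N and 2.71, 3.94 and 4.05 in ZM447439 2N. In 4N it was at 1.67, 1.58 and 2, 1.76, 3.09 and 2.82 and 2.81, 2.49 and 2.58. ZM447439 libraries were above untreated ones in both sorts. SREBF2 rose by 0.60 with cytochalasin D (SE 0.21; limma, adjusted p = 0.0179) and by 0.85 with ZM447439 (SE 0.21; limma, adjusted p = 0.00259) in 2N. The ZM447439 difference in 4N was 0.48 (SE 0.21; limma, adjusted p = 0.0631). SREBF2-AS1 overlaps it on the other strand.

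SREBF1, whose product acts mainly on fatty acid genes, held 3.34, 3.3 and 3.74 RPKM in untreated 2N, 3.13, 5.87 and 5.73 in cytochalasin D 2N and 3.22, 5.15 and 5.47 in ZM447439 2N. Its 4N values were 3.75, 3.69 and 3.74, 2.82, 5.63 and 5.06 and 3.37, 3.31 and 3.43. SREBF1 passed in none of the 11 comparisons, with 2N differences of 0.41 for cytochalasin D and 0.34 for ZM447439 (SE 0.24; limma, adjusted p = 0.143 and 0.241). In both drugs replicate 1 of the 2N sort was below every untreated 2N library and replicates 2 and 3 were above them.

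STARD4, a cytosolic sterol carrier, was at 2.85, 2.84 and 2.71 RPKM in untreated 2N, 2.76, 5.15 and 4.43 in cytochalasin D 2N and 7.12, 6.39 and 6.65 in ZM447439 2N, and at 2.45, 2.61 and 2.53, 2.86, 3.51 and 3.11 and 6.79, 3.93 and 3.92 in 4N. Here ZM447439 replicate 1 was the highest of its group in both sorts. In ZM447439 2N replicate 1 was below both others for 29 of the 31 genes with a row, a count made for the set alone. STARD4 rose with ZM447439 by 1.13 and 0.79 (SE 0.19; limma, adjusted p = 0.000149 and 0.00271), and with cytochalasin D in 2N by 0.45 (SE 0.19; limma, adjusted p = 0.0498). SCAP, the sterol-sensing escort, varied least over the libraries, 1.25-fold from lowest to highest. It measured 1.06, 1.04 and 1.17 RPKM in untreated 2N, 1.23, 1.13 and 1.22 in cytochalasin D 2N and 1.09, 1.25 and 1.22 in ZM447439 2N, then 1.05, 1.02 and 1.02, 1.18, 1.27 and 1.23 and 1.24, 1.26 and 1.25 in 4N. Its 4N rises of 0.18 with cytochalasin D and 0.20 with ZM447439 passed (SE 0.04; limma, adjusted p = 0.00204 and 0.00149).

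Per length of genomic span, SCD had the highest RPKM of the set. SCD, the stearoyl-CoA desaturase, was at 29.6, 27.7 and 38 RPKM in untreated 2N, 18.3, 73.9 and 61.7 in cytochalasin D 2N and 49.5, 84 and 99.9 in ZM447439 2N. The 4N values were 22.8, 21.3 and 25.3, 15.9, 50.1 and 42.5 and 47.9, 35.8 and 42. It rose with ZM447439 in 2N by 1.23 (SE 0.47; limma, adjusted p = 0.0374), with no overlap, and the cytochalasin D difference of 0.47 in 2N spanned replicates on both sides of the untreated ones (SE 0.47; limma, adjusted p = 0.39). FASN, fatty acid synthase, held 19.3, 19.1 and 24.4 RPKM in untreated 2N, 8.89, 23.5 and 23.7 in cytochalasin D 2N and 21.5, 42.3 and 44.2 in ZM447439 2N, and 16.5, 15.7 and 16.2, 7.63, 18.7 and 14.1 and 20.6, 22.9 and 24.9 in 4N. Its ZM447439 difference in 2N was 0.71 (SE 0.37; limma, adjusted p = 0.117), and replicate 1 lay within the untreated range.

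ACLY, which makes cytosolic acetyl-CoA from citrate, was at 5.68, 5.79 and 5.75 RPKM in untreated 2N, 3.07, 4.66 and 4.47 in cytochalasin D 2N and 5.39, 5.85 and 6.12 in ZM447439 2N, and at 6.27, 6.14 and 6.19, 2.81, 3.71 and 3.58 and 5.07, 4.61 and 4.64 in 4N. Cytochalasin D libraries were below all untreated libraries in both sorts. The falls were -0.47 and -0.80 with cytochalasin D (SE 0.12; limma, adjusted p = 0.00243 and 2.12e-05) and -0.35 with ZM447439 in 4N (SE 0.12; limma, adjusted p = 0.0202). FADS1 and FADS2, the desaturases of polyunsaturated fatty acids, passed in no comparison. FADS1 was at 4.87, 5.11 and 6.41 RPKM in untreated 2N, 3.02, 7.44 and 6.8 in cytochalasin D 2N and 5.75, 8.01 and 9.26 in ZM447439 2N, and at 5, 5.06 and 6.57, 3.15, 5.84 and 5.24 and 6.2, 5.87 and 6.43 in 4N. FADS2 ranged from 3.01 RPKM in cytochalasin D 4N replicate 1 to 10.1 in ZM447439 2N replicate 3. The annotated span of FADS1 lies within that of FADS2 on the other strand, 29694 bases, so their reads cannot be told apart without strand. FADS2 also overlaps FEN1 on the same strand, by 4265 bases with shared exon bases. FEN1 averaged 11.3 RPKM, so the values of FADS2 are uncertain for that reason too.

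ELOVL6, which elongates saturated fatty acids, was under the filter at 0.461, 0.51 and 0.497 RPKM in untreated 2N, 0.192, 0.219 and 0.209 in cytochalasin D 2N and 0.359, 0.466 and 0.456 in ZM447439 2N, and at 0.528, 0.541 and 0.59, 0.174, 0.208 and 0.217 and 0.368, 0.538 and 0.536 in 4N. On a scale of reads divided by library size alone, which keeps long genes above the filter and tested 20106 genes, ELOVL6 was lower with cytochalasin D by -1.23 in 2N and -1.46 in 4N (SE 0.13; limma, adjusted p = 6.84e-07 and 7.72e-08). The ZM447439 differences were -0.20 and -0.22 (SE 0.13; limma, adjusted p = 0.209 and 0.168). ABCA1, the exporter of cellular cholesterol, was at 0.36, 0.316 and 0.229 RPKM in untreated 2N, 0.627, 0.663 and 0.611 in cytochalasin D 2N and 0.29, 0.484 and 0.509 in ZM447439 2N, and at 0.342, 0.296 and 0.276, 0.618, 0.682 and 0.601 and 0.339, 0.311 and 0.406 in 4N. On the same scale ABCA1 rose with cytochalasin D by 1.09 and 1.05 (SE 0.19; limma, adjusted p = 8.66e-05 and 0.000104) and with ZM447439 in 2N by 0.48 (SE 0.19; limma, adjusted p = 0.0377). In both genes the cytochalasin D libraries were clear of the untreated ones in both sorts. Between the drugs ABCA1 was higher with cytochalasin D by 0.60 in 2N and 0.85 in 4N (SE 0.19; limma, adjusted p = 0.0184 and 0.00178), and ELOVL6 was lower by -1.03 and -1.24 (SE 0.13; limma, adjusted p = 3.28e-05 and 4.05e-06). On this scale 68.2% and 72.2% of all genes passed with cytochalasin D against untreated in 2N and 4N. With ZM447439 56.3% and 57.1% passed, and between the drugs 38.1% and 43.5%. Sizes on this scale are not comparable with those of log2(RPKM + 0.5), where the added 0.5 shrinks differences of genes near that level. NSDHL, for example, differed between ZM447439 2N and untreated 2N by 0.34 there and by 0.55 here. INSIG2 and HSD17B7, also low in RPKM, are given on the scale that shrinks them.

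Between the sorts without drug, of the 29 genes 0 passed between untreated 4N and untreated 2N by limma, with 2 at an unadjusted p under 0.05, where 17.4% of all genes passed (12.9% higher, 4.55% lower). Those 2 were PMVK, by 0.15, and TM7SF2, by -0.58 (limma, adjusted p = 0.0883 and 0.137). The median of the 29 was -0.06, from -0.58 (TM7SF2) to 0.20 (EBP), against 0.04 for all genes. With the fit on these libraries alone 3 passed, all lower, where 19.7% of all genes passed. Without the 6 libraries 9 passed, 4 higher and 5 lower, where 30% of all genes did, about the same share. Without untreated 2N replicate 3, 1 passed, where 12.5% of all genes did.

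With ZM447439 most of the set was lower in 4N than in 2N, though by little in replicate 1, and no gene passed in the main fit. The 4N minus 2N difference of the 29 genes had a median of -0.43, from -1 (HMGCS1) to 0.06 (PMVK and SCAP), and 27 of 29 were below 0, where the median of all genes was 0.01. By limma 0 of 29 passed, with 10 at an unadjusted p under 0.05, where 7.66% of all genes passed (5.21% higher, 2.45% lower). Same-numbered sorts of a drug deviated together, and with replicate number and drug as a replicate block 14 of 29 were lower in 4N, where 15.5% of all genes passed, 920 of them lower. HMGCS1 differed by -1 (SE 0.44 without the block; limma, adjusted p = 0.178 without and 0.0332 with it), MVD by -0.87 (limma, adjusted p = 0.179 and 0.031), SCD by -0.84 (limma, adjusted p = 0.295 and 0.0354) and INSIG1 by -0.52 (limma, adjusted p = 0.258 and 0.0663). The 14 were ACAT2, HMGCS1, MVD, IDI1, SQLE, LSS, CYP51A1, MSMO1, SC5D, DHCR7, INSIG2, SCD, FASN and ACLY.

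The replicates fell into different patterns. Within same-numbered ZM447439 sorts the median difference was -0.05 in replicate 1, -0.61 in replicate 2 and -0.70 in replicate 3. Genes of the set below 0 numbered 19, 27 and 27 of 29, against 44.2%, 48.1% and 50.7% of all genes. Genes of the set lower by more than 0.5 numbered 0, 20 and 21 of 29, against 1.72%, 3.41% and 3.9% of all genes. HMGCS1 differed by -0.14, -1.41 and -1.46, SCD by -0.05, -1.22 and -1.24 and FASN by -0.06, -0.87 and -0.82 in replicates 1, 2 and 3. Without ZM447439 2N replicate 1, or without ZM447439 4N replicate 1, 2 genes passed (20.9% and 10.4% of all genes), and without the 6 libraries 28 passed, 27 of them lower in 4N, where 40.3% of all genes passed. The summed level of the 8 G2/M genes was 21.2, 12 and 10.2 RPKM in ZM447439 2N and 31, 35.4 and 37.5 in ZM447439 4N, so the sorts were also less apart in these genes in replicate 1. Its part in the result was not tested.

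With cytochalasin D, too, replicate 1 was the one with a median near 0. The median 4N minus 2N difference was -0.27, with 27 of 29 genes below 0, and by limma 0 of 29 passed, with 0 at an unadjusted p under 0.05, where 0% of all genes passed (682 at an unadjusted p under 0.05). By replicate the median was -0.05, -0.41 and -0.36. HMGCS1 differed by -0.08, -0.72 and -0.72 and MVD by -0.09, -0.60 and -0.83. Without the 6 libraries 24 of 29 were lower in 4N, where 7.22% of all genes passed, 465 of them lower. The summed G2/M level was 10.4, 5.53 and 5.22 RPKM in 2N and 16.2, 14.5 and 14.2 in 4N, and its part was not tested. Untreated sorts gave replicate medians of -0.02, -0.01 and -0.11.

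**Figure D4:**
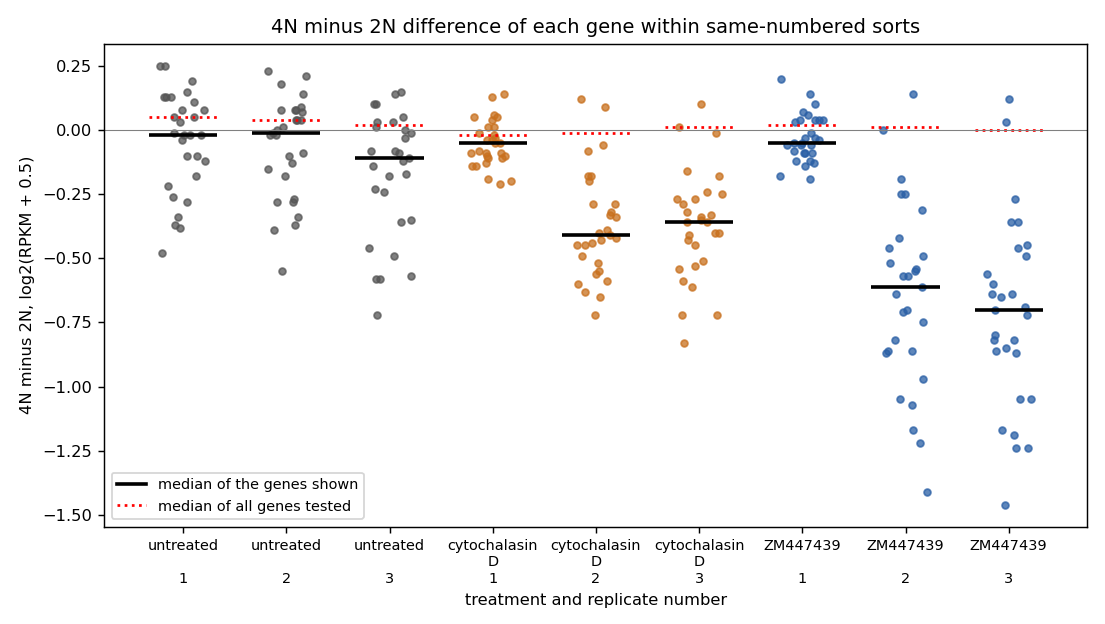
Each point is a gene's log2(RPKM + 0.5) in the 4N library minus that in the 2N library of the same treatment and replicate number (29 genes, spread sideways for legibility); black lines are medians of these genes and red dotted lines medians of all 13037 genes tested. Replicates 2 and 3 of ZM447439 have medians of -0.61 and -0.70 and those of cytochalasin D -0.41 and -0.36, while replicate 1 of both is at -0.05.

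Whether a drug changed the sort difference was tested directly. For ZM447439 against untreated, 1 of 29 genes passed, where 10.1% of all genes passed (3.52% higher, 6.58% lower). INSIG2 had a sort difference lower by -0.25 under ZM447439 (SE 0.07; limma, adjusted p = 0.0365). The values behind it are a 4N minus 2N difference of 0.08 untreated and -0.16 with ZM447439. With the replicate block 4 passed, all lower: INSIG2, ACLY, ACAT2 and EBP, where 19.2% of all genes passed. Without the 6 libraries 27 passed, all lower, where 37.4% of all genes passed, 3194 of them lower. INSIG2 itself did not pass when any of 9 of the 12 libraries was left out, among them ZM447439 2N replicates 2 and 3 (limma, adjusted p = 0.0788 and 0.0711). For cytochalasin D against untreated 0 of 29 passed by limma, with 0 at an unadjusted p under 0.05, where 7.85% of all genes passed (1.8% higher, 6.04% lower). Without cytochalasin D 2N replicate 1, 1 passed, where 6.61% of all genes did. With the block 2 passed, ACLY and EBP, both lower, where 14.8% of all genes did, and without the 6 libraries 15 passed, all lower, where 21.2% did.

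The drugs were also compared with each other at the same DNA content, at a cytochalasin D dose the labels do not give. Between cytochalasin D 2N and ZM447439 2N, 9 of 29 genes were lower with cytochalasin D and none higher, where 36.9% of all genes passed (13.7% higher, 23.2% lower). They were ACLY (-0.48), EBP (-0.80), STARD4 (-0.68), NSDHL (-0.43), SQLE (-0.80), SC5D (-0.50), ACAT2 (-0.88), INSIG1 (-0.77) and FASN (-0.98). The median was -0.53, against -0.04. In 4N cells ACLY (-0.46), EBP (-0.81), STARD4 (-0.52) and NSDHL (-0.35) were lower and none higher, where 43.5% passed (15.7% higher, 27.8% lower), and after rescaling 1 was higher and 2 lower. Same-numbered libraries of the drugs deviated together. The block here was replicate number over all 18 libraries, untreated ones included, whose pairing with the drugs is not settled. With it 17 and 7 genes were lower in 2N and 4N, where 42.4% and 49.3% of all genes passed. The 2N count fell to 3 without cytochalasin D 2N replicate 1, where 34.8% of all genes passed. It was 4 or 3 without replicate 2 or replicate 3 of ZM447439 2N, where 34.1% and 32.7% passed. A fit on these libraries alone gave 0, where 19.4% of all genes passed. The 4N count was 2 without ZM447439 4N replicate 1, where 40.6% passed. Without the 6 libraries 23 genes were lower in 2N and none higher (50.5% of all genes passed), and in 4N 7 were higher and 8 lower (57.3%). ACLY and EBP in 4N were the results here that passed under every alternative.

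Most genes of the set moved together across the 18 libraries, which share drugs, sorts and replicate numbers. The same correlations were not computed for other genes, so whether they are unusual in these data is not known. As a description, the correlation of a gene's log2 level with the mean of the other 28 was 0.99 for CYP51A1, FDFT1 and DHCR7 and 0.97 for HMGCS1, MVD and SCD. At the other end were EBP (0.31), SCAP (0.34), ACLY (0.39) and PMVK (-0.34). With group means removed, the value for EBP was 0.95 and for ACLY 0.96, while SCAP was at 0.26 and PMVK at 0.46. These values include the libraries that stand apart from their groups. SCAP also had the smallest standard deviation over the libraries, 0.0813 on the log2 scale, and TM7SF2 the largest, 1.04.

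Other genes of the pathway, 46 in a list of neighbours, had 34 past the filter. With ZM447439 17 rose and 6 fell in 2N and 7 rose and 11 fell in 4N. With cytochalasin D 16 rose and 11 fell in 2N and 11 rose and 12 fell in 4N. Of all genes, 56% passed with ZM447439 in 2N (23.6% higher, 32.5% lower) and 55.2% in 4N (19.6% higher, 35.5% lower). With cytochalasin D 66.6% passed in 2N (27.1% higher, 39.5% lower) and 70.5% in 4N (26.1% higher, 44.4% lower). The 18 of 34 with ZM447439 in 4N are near the background, and so is the total with cytochalasin D in 4N. Whether the list differs from all genes was not tested. Shown here are genes that passed in all 4 of these comparisons, chosen after their values were seen. Of 8 tested genes of SREBP cleavage, sterol sensing and degradation, ERLIN1, which helps degrade sterol-sensing proteins, fell by -1.16 and -1.43 with cytochalasin D and by -0.73 and -0.81 with ZM447439. NR1H3, a sterol-activated nuclear receptor, rose by 0.62 and 0.68 and by 0.43 and 0.35. Among 9 tested genes of sterol uptake, transport and esterification, SOAT1, which esterifies cholesterol, fell by -0.58 and -0.86 and by -0.46 and -0.64. LIPA, the lysosomal lipase that frees cholesterol from its esters, rose by 0.64 and 0.53 and by 0.50 and 0.28. Among 11 tested genes of acyl chain supply, LPIN1, a phosphatidate phosphatase, rose by 0.46 and 0.52 and by 0.51 and 0.48. In each of these pairs 2N comes first and 4N second, cytochalasin D before ZM447439.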

How the data were processed

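The files hold 1 table of 57773 gene rows and 18 columns in RPKM, made by the authors before it was deposited. The submitters' processing notes name CASAVA 1.8.2, TopHat2, edgeR and hg19, with no roles given. Among low RPKM values in the deposited table, 88.9% to 89.5% per library were whole multiples of 1 read (tolerance 0.05) with the genomic span of a gene in GENCODE 29 as its length, against 9.39% to 10.3% with exonic length. RPKM therefore counts intron length, and the read totals and depths used here are implied ones. The kit is not stranded. Symbols matched 52338 identifiers, and promoters are RefSeq's.

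The comparisons used log2(RPKM + 0.5) for 13037 genes with a mean of at least 0.5, with limma 3.58.1 in R 4.3.3: 6 group means over 18 libraries, 12 residual degrees of freedom, moderated with a trend, Benjamini-Hochberg adjustment over all genes and a threshold of 0.05. The fit was tested on simulated data. Alternatives were another pseudocount (0.1), no filter, rescaling, reads divided by library size alone, each comparison's own libraries, a replicate block, each library left out, and the 6 libraries that stand apart left out. Same-numbered sorts of a treatment had r from 0.19 to 0.63, with 0.19, 0.19 and 0.45 in untreated cells. Same-numbered libraries of the 2 drugs had r from 0.23 to 0.52. Between untreated and drug libraries r ran from -0.21 to 0.28. The last range overlaps the others, so r does not settle which numbers pair. The block is therefore used only as an alternative. It was treatment and number for the sort comparisons and their changes. For the drug comparisons it was number alone, over all 18 libraries. Per-library values are given for the genes with the smallest p-values in each comparison, with further genes of the set. The members and lists were chosen with earlier results of these data known.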

Additional observations from a re-analysis of the deposited data

Results flagged for a closer look

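INSIG2 was singled out because its difference between the sorts was itself different under ZM447439 and without drug. The 4N minus 2N difference was 0.08 on the log2 scale in untreated cells and -0.16 with ZM447439, a change of -0.25 (SE 0.07; limma, adjusted p = 0.0365). Over all alternatives the adjusted p ran from 0.00149 (without ZM447439 2N replicate 1) to 0.0837 (without untreated 4N replicate 1).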

How the results depend on the processing

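For single genes, 86 results gave 1124 values under the alternatives, of which 942 kept their direction and their side of the threshold, 128 lost the call, 49 gained one and 5 turned direction. Of 57 called results 27 passed under every alternative. The 5 turned values belong to the cytochalasin D sort difference, where no gene was called: SCD at 0.07 and SREBF2 at 0.03 without 4N replicate 1, and SREBF1 at 0.02 and 0.01 without 2N replicates 2 and 3 and at 0.15 without 4N replicate 1. Over single left-out libraries SCD ran from -1.05 to 0.07, SREBF1 from -0.38 to 0.15 and SREBF2 from -0.41 to 0.03. The cause was not tested.

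Counts of the 29 genes called moved as follows. The fit without the 6 libraries that stand apart leaves the closest replicates, which shrinks the spread by construction and raised the share of all genes called in each comparison. Without the 6 libraries that stand apart they were 9 (untreated sorts), 24 (cytochalasin D sorts), 28 (ZM447439 sorts), 27 and 23 (cytochalasin D against untreated, 2N and 4N), 24 (ZM447439 against untreated, 4N), 23 and 15 (cytochalasin D against ZM447439, 2N and 4N), and 15 and 27 (change of the sort difference under cytochalasin D and ZM447439). On each comparison's own libraries they were 3 (untreated sorts), 23 (ZM447439 against untreated, 4N) and 0 (cytochalasin D against ZM447439, 2N). After rescaling 1 passed between ZM447439 sorts, and with no filter 0 passed for the change under ZM447439. With the replicate block, which rests on pairing by number, the counts were 14 (ZM447439 sorts), 17 and 7 (cytochalasin D against ZM447439), 2 (change under cytochalasin D) and 4 (change under ZM447439). The block left all other counts within 1.5 times.

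Leaving out 1 library at a time gave 0 to 1 for the untreated sorts, 0 to 0 for cytochalasin D sorts, 0 to 2 for ZM447439 sorts, 5 to 19 and 6 to 8 for cytochalasin D against untreated in 2N and 4N, 9 to 21 and 6 to 7 for ZM447439, 3 to 12 and 2 to 6 for cytochalasin D against ZM447439, and 0 to 1 for both changes of the sort difference. Of all genes, 12.3% to 13.6% passed in these fits for untreated sorts, up to 0.0384% for cytochalasin D sorts and 1.6% to 20.9% for ZM447439 sorts. For cytochalasin D against untreated the share was 61.4% to 65.1% in 2N and 66.2% to 68.9% in 4N. For ZM447439 against untreated it was 49.5% to 58.1% and 49.4% to 52.7%. Between the drugs it was 27.7% to 34.8% and 36.6% to 42.4%. For the change of the sort difference under cytochalasin D it was 5.5% to 8.68%. For the change under ZM447439 it was 6.45% to 8.54% when an untreated library was left out. Depth limits the set little, since the fewest reads of a tested gene in a library were 264.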
